A study of Mus musculus with 5 samples.

Results

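The genes of glucose uptake and glycolysis analysed here are the 10 genes named Slc2a1, Hk1, Hk2, Pfkl, Aldoa, Tpi1, Pgk1, Eno1, Pkm and Ldha, found by their gene names in the deposited count table. They took 11 of its 28666 rows, because the name Aldoa stands on 2 rows, and all 11 passed the filter on low counts. RNA of whole uteri was sequenced from pseudopregnant ICR females, 6 to 8 weeks of age, after mating with vasectomized C57BL/6 males, so that all groups received seminal plasma (SP) without sperm and carried no embryos at collection. The males were 12 to 14 weeks old in the young-SP group (3 libraries, replicates 1, 2 and 4) and 12 to 18 months old in the aged-SP group (2 libraries, replicates 1 and 4). The methods of the study place collection at 3.0 days post coitum (dpc), and the series text at 3.5 days after caging. A further young-SP library that the study left out as an outlier was not analysed here. The labels do not say whether each library is a separate female, so p-values measure the spread between these libraries only. The comparison asked whether the level of these mRNAs in the uterus, just before an embryo would implant, differed with the age of the male.

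Glucose enters cells through transporters of the SLC2 family, is trapped inside by hexokinase, and is split and oxidized to pyruvate, which lactate dehydrogenase can reduce to lactate. Many of these genes are known targets of hypoxia-inducible factor, which binds promoters at a short core motif. In the uterus, glucose uptake and glycolysis are known to serve the growth of the lining and its change into decidua around implantation.

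Several members have near-identical copies elsewhere in the genome, which bears on every count below. Processed pseudogenes are copies of a spliced mRNA, and a read that lies inside an identical stretch cannot be placed on one copy alone. Reads that are split between copies or set aside lower the count of the gene they came from, and how they were counted is not given in the sources used here. The next 3 pairs, taken from GENCODE M21 transcripts, are shown because they are what an aligner meets at Pgk1, Eno1 and Pkm. Each is 60 coding bases, and capitals mark a base that differs within a pair.
Pgk1: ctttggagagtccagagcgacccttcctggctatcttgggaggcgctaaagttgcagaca
Pgk1-rs7: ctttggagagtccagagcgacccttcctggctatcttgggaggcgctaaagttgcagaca
Eno1: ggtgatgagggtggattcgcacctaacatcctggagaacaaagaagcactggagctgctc
Gm4735: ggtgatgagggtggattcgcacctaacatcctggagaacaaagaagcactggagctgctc
Pkm: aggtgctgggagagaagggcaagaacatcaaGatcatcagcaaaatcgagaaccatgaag
Gm6560: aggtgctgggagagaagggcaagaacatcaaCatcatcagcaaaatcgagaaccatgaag

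The Pgk1 and Eno1 stretches had 0 mismatches to their copies, and the Pkm stretch had 1. Over the longest coding transcript, 72.2% of the 50-base stretches of Eno1 and 68.0% of those of Pgk1 also occurred in transcripts of other genes. The share was 34.4% for Pkm, 16.6% for Ldha, 13.5% for Aldoa and 7.51% for Tpi1. It was 1.74% for Slc2a1 and 0.054% for Pfkl, and Hk1 and Hk2 had 0 shared stretches. Counts of Eno1 and Pgk1 are therefore uncertain in level, and those of Slc2a1, Hk1, Hk2 and Pfkl hardly at all.

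The copies of Eno1 took up many reads. Eno1 itself (chr4:150236721-150248879, GRCm38, plus strand) had 3059, 2916, 4783, 3142 and 2554 reads in aged-SP 1 and 4 and young-SP 1, 2 and 4. The processed pseudogene Gm4735 (chr2:80837141-80838442) had 748, 728, 1244, 830 and 706 reads in the same order. The gene Eno1b, which also shares most of its sequence with Eno1, had 954, 936, 1406, 1028 and 748. All 3 rows were highest in young-SP 1. Of the rows that share most of their sequence with Pgk1, Pgk1-rs7 (chr12:10898986-10900240) held between 24 and 51 reads a library, against 2109 to 4095 for Pgk1. Gm6560 (chr5:22724578-22726168), the Pkm copy shown above, held 63 to 99 reads. A further row, AC160637.1, lies within the bounds of Pkm (chr9:59672814-59676700) and held 202 to 241 reads. Hk1os and Gm12868 are antisense rows over Hk1 and Slc2a1 with at most 12 and 2 reads, and the counting is not stated to use strand. The second Aldoa row (chr7:126800790-126809108) lies next to the main one and held between 6 and 23 reads a library. It is not described further, except in the counts over 11 rows.

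The proximal promoters of 4 members are shown because they hold the core motif of hypoxia-inducible factor, ACGTG on either strand (CACGT on the other), in capitals. They are the 250 bases before a RefSeq start on GRCm38.p6, written in the direction of the gene. The motif overlaps the E-box CACGTG, read by MYC and by the glucose-responsive factors of the MONDO family, which contains it on both strands.
Ldha: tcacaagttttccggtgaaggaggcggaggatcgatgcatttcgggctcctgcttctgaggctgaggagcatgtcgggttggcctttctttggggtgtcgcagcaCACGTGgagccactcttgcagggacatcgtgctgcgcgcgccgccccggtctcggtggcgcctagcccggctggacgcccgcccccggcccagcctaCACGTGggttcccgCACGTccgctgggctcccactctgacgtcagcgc
Pgk1: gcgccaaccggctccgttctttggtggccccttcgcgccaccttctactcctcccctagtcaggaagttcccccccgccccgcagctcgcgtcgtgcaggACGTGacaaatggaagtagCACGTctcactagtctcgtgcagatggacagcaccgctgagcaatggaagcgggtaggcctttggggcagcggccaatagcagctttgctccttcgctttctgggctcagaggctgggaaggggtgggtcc
Hk2: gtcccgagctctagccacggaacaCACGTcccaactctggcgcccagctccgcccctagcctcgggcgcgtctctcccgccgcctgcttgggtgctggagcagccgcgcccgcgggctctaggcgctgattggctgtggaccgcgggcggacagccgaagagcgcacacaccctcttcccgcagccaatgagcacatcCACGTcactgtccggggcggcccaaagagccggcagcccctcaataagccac
Slc2a1: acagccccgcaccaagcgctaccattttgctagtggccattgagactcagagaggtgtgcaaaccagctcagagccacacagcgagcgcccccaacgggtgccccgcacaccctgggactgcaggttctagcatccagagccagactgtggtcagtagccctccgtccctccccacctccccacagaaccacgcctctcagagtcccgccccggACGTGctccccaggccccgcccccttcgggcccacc

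These windows lie at chr7:46845554-46845803 (Ldha, plus strand), chrX:106186850-106187099 (Pgk1, plus), chr6:82774455-82774704 (Hk2, minus) and chr4:119108495-119108744 (Slc2a1, plus). The Ldha window holds 3 separate sites, 2 of them the E-box, while the window before a second RefSeq start of Ldha holds none. Bases just after the start of the printed Ldha window were not found in a GENCODE transcript of Ldha. Those after the second start were found. Of the 10 members, 6 had the motif before at least 1 of their starts (these 4, Aldoa and Pkm), as did 7 of their 17 windows. Over all genes, 16.6% of 32851 windows held ACGTG on either strand, 6.02% held CACGTG, and 18.5% of 27025 genes had the motif before at least 1 start. The Aldoa windows that hold the motif overlap and share the same site, which is counted in each. The members had more windows for each gene than genes at large, and so more places for a match. A match is a description of the letters, not a site of binding.

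Per length, in FPKM (the count scaled by the length of the gene and the total of the library), the members formed a high and a low set. Ldha, which makes lactate from pyruvate, had the highest mean over the 5 libraries (119.6 FPKM, 366th of the 17013 tested genes), followed by the aldolase gene Aldoa (116), the triose phosphate isomerase gene Tpi1 (95.4), the pyruvate kinase gene Pkm (84.2) and the phosphoglycerate kinase gene Pgk1 (74.9). The enolase gene Eno1 stood at 38.1 FPKM. The hexokinase gene Hk1 (12.9), the transporter gene Slc2a1 (10.9), the phosphofructokinase gene Pfkl (9.29) and Hk2 (7.04, 7048th) were lower. The ranges over libraries of neighbours in this order overlapped, with 2 exceptions. Pgk1 (59.96 to 113 FPKM) lay above Eno1 (31.5 to 55.2), and Eno1 lay above Hk1 (11.05 to 13.9). The levels of Pgk1 and Eno1 carry the shared sequence described above. Their order also depends on the gene length behind the FPKM, 2244 bases for Pgk1 and 5379 for Eno1. The longest coding transcripts have 1825 and 2027 bases, and Eno1 had more reads than Pgk1 in every library.

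The summed FPKM of the 11 rows was 514 and 469.6 in aged-SP 1 and 4. It was 757 in young-SP 1, 558 in young-SP 2 and 549 in young-SP 4, a mean of 492 ± 31.2 (SD, n = 2) for aged-SP against 621 ± 117 (SD, n = 3) for young-SP. The 2 groups did not overlap in this sum, and young-SP 1 stood well above young-SP 2 and 4. In whole tissue, fewer cells of a type and less RNA per cell cannot be told apart.

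**Figure D1:**
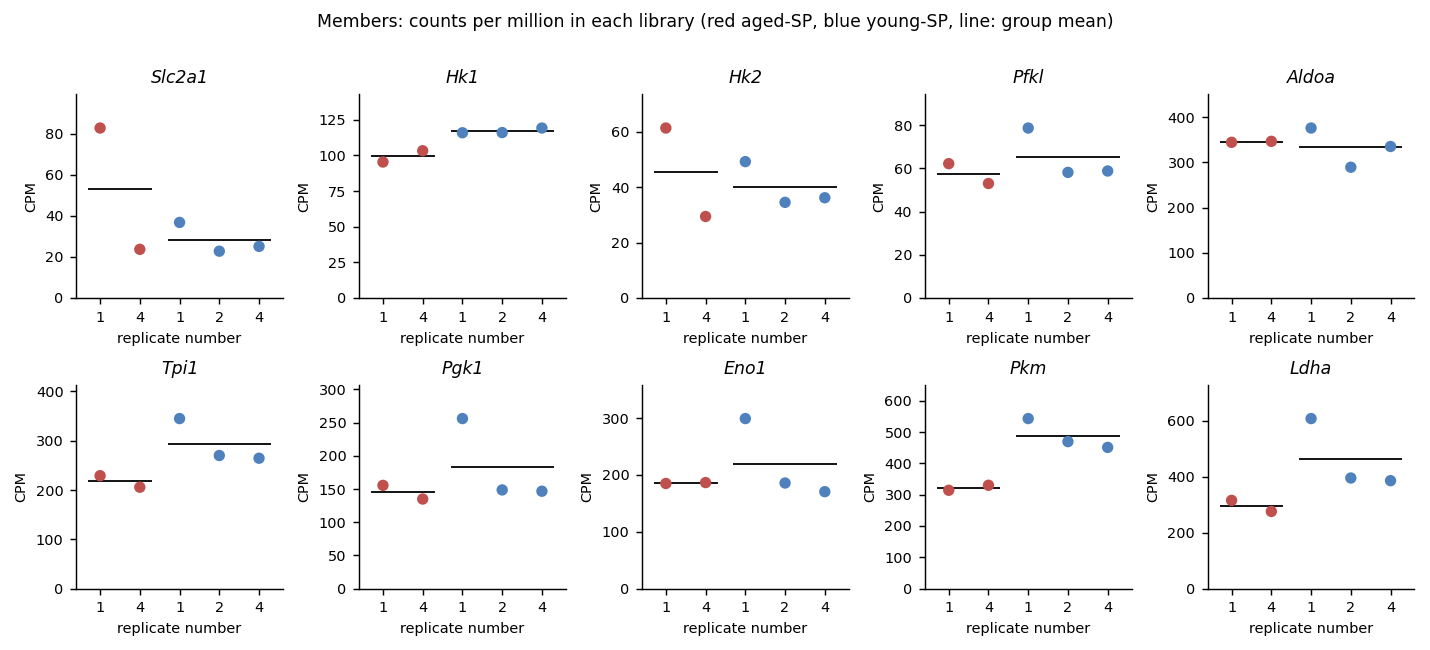
CPM (counts scaled by library size, vertical axes from 0) of the 10 members in each library, with 1 panel a gene, aged-SP in red, young-SP in blue, and black lines at group means. Young-SP replicate 1 is the highest library in 7 panels, and aged-SP replicate 1 in those of Slc2a1 and Hk2.

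One library, young-SP 1, set much of the spread. It was the highest of the 5 libraries for 7 of the 10 members (Pfkl, Aldoa, Tpi1, Pgk1, Eno1, Pkm and Ldha), where 20.6% of all tested genes had their highest value there. Its CPM was 1.73 times the mean of young-SP 2 and 4 for Pgk1, 1.68 times for Eno1 and 1.56 times for Ldha, but 0.985 times for Hk1. The difference in each member is therefore given with and without it. In the aged-SP group, replicate 1 had 3.49 times the Slc2a1 and 2.09 times the Hk2 of replicate 4, while the 2 replicates differed by less for the other genes, with ratios between 0.924 and 1.17.

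Sums of marker genes also differed between the libraries. The 6 proliferation genes (Mki67, Top2a, Ccnb1, Cdk1, Pcna, Mcm2) summed to 342 and 365 CPM in aged-SP and to 850 CPM in young-SP 1, 503 in young-SP 2 and 386 in young-SP 4, and all 6 had lower group means in aged-SP. Neutrophil genes summed to 99.6 and 28.4 CPM in aged-SP and to 217, 50.4 and 33.1 CPM in young-SP, in the order of the replicates. The 8 epithelial genes summed to 1282 CPM in both aged-SP libraries, 1605 in young-SP 1, 753 in young-SP 2 and 928 in young-SP 4, with 5 of 8 higher in aged-SP. The 8 stromal genes ran the other way, at 6010 and 7444 CPM against 8045 to 10708, with 6 of 8 lower in aged-SP. No marker of these 4 lists was at 0 in any library. Their part in the results below was not tested.

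Among the remaining marker lists, those of 4 cell types overlapped between the groups. Myometrium genes summed to 9046 and 11455 CPM in aged-SP and 9422 to 14235 in young-SP, endothelium genes to 526 and 531 against 386 to 680.4, leukocyte genes to 297 and 316 against 281 to 396, and erythroid genes to 96.8 and 180.5 against 79.8 to 216. Skeletal muscle genes summed to 91.5 and 116 CPM against 193 to 264. That list rests largely on Acta1, although 4 of its 5 rows were tested, and Myh1 had 1 read in all libraries together. Of the adipose genes, Adipoq and Cidec were at 0 in 4 libraries and had 12 and 8 reads in young-SP 4, and the list summed to 3.20 and 4.09 CPM against 4.504 to 6.74.

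No member was called by the main test, which was quasi-likelihood testing in edgeR with p-values adjusted over all 17013 tested genes (Benjamini-Hochberg) and calls made at an adjusted p under 0.05 with an absolute log2 fold change over 1. This test called 25 genes in all, or 0.147%. Without adjustment, 4 of the 11 member rows had a p under 0.05, and all 4 (Hk1, Tpi1, Pkm and Ldha) were lower in aged-SP, as were 9.36% of all tested genes by the same rule, while 19.0% of all tested genes had a p under 0.05 in either direction. The same 4 members were those whose aged-SP and young-SP libraries did not overlap. Over all genes, 19.3% did not overlap and were lower in aged-SP, and 38.8% did not overlap in either direction. DESeq2 called 0 members, and limma-voom 0. DESeq2 gave 1 member, Pkm, an adjusted p under 0.05, against 7.58% of all genes it tested. The median log2 fold change of the 11 rows was -0.23, and that of all tested genes 0.0072. Without young-SP 1 the members' median was -0.03, and without aged-SP 1 the number with an unadjusted p under 0.05 was 1 (Pkm), in a fit where 5.57% of all genes passed that rule and were lower. Without aged-SP 4 the log2 fold changes were -0.30 for Hk1, -0.36 for Tpi1, -0.64 for Pkm and -0.55 for Ldha. That of Slc2a1 was 1.55 in the same fit.

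**Figure D2:**
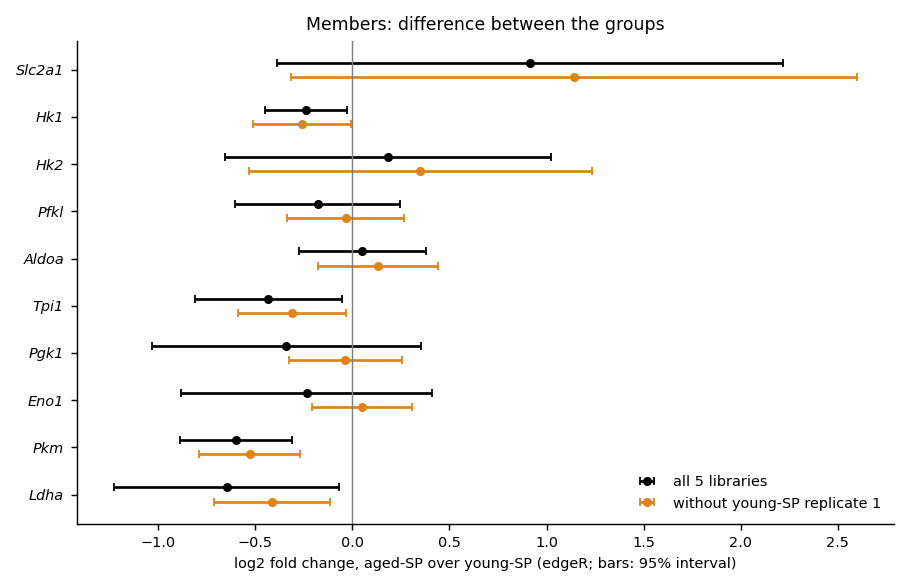
Log2 fold change of each member, aged-SP over young-SP, from edgeR with its 95% interval (horizontal bars), with all 5 libraries in black and without young-SP replicate 1 in orange. Only the intervals of Hk1, Tpi1, Pkm and Ldha lie below 0 with all libraries, and the orange points of Pgk1, Eno1 and Pfkl sit close to 0.

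Among the members whose groups did not overlap, those of the last steps of the pathway had the largest differences. Pkm, on chr9:59656368-59679375, makes the enzyme that turns phosphoenolpyruvate into pyruvate. Its level was 314 CPM in aged-SP 1 and 330.0 in aged-SP 4, and 543, 469.6 and 451 CPM in young-SP 1, 2 and 4. Both aged-SP libraries lay well below every young-SP library. The log2 fold change was -0.60 ± 0.12 (SE), or a level 0.66 times that of young-SP. The unadjusted p was 0.00263, with an edgeR adjusted p of 0.0961. DESeq2 gave an adjusted p of 0.000456 for the same difference, which is below the fold change that a call asked for. Without young-SP 1 the log2 fold change was -0.53, with an edgeR adjusted p of 0.0578 and a DESeq2 adjusted p of 0.00236.

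Ldha (chr7:46841475-46855627) had 316 and 276 CPM in the aged-SP libraries and 608, 396 and 386 CPM in young-SP 1, 2 and 4. The groups did not overlap, although the gap between aged-SP 1 and young-SP 4 was smaller than that between young-SP 1 and the other young-SP libraries. Its log2 fold change of -0.65 ± 0.23 (SE) had a p of 0.0345, an edgeR adjusted p of 0.230 and a DESeq2 adjusted p of 0.0856. With young-SP 1 left out it was -0.41, with a DESeq2 adjusted p of 0.0705.

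Ldhb, the other main lactate dehydrogenase subunit gene, had 440.0 and 332 CPM in aged-SP and 557, 223 and 208 CPM in young-SP, so that young-SP 1 lay above both aged-SP libraries and young-SP 2 and 4 below them (log2 fold change 0.23 ± 0.47 SE, edgeR adjusted p = 0.827). Without young-SP 1 it was 0.83 (edgeR adjusted p = 0.0624). Of the FPKM of both genes together, Ldha made up 25.4% and 28.3% in aged-SP and 34.1%, 45.7% and 46.8% in young-SP 1, 2 and 4. All 3 young-SP libraries had a higher share than either aged-SP library, a description for which no test was run. The size of the shares depends on the gene lengths used, 3310 bases for Ldha and 1570 for Ldhb. Their longest coding transcripts have 1815 and 1304 bases.

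In the middle of the pathway, Tpi1 (chr6:124810586-124814296), whose enzyme interconverts the 2 triose phosphates, had 229 and 206 CPM in aged-SP and 345, 270.1 and 265 CPM in young-SP. These groups did not overlap, and the log2 fold change was -0.43 ± 0.15 (SE), with an edgeR adjusted p of 0.222. It stayed at -0.31 without young-SP 1.

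Pgk1 (chrX:106187100-106203699), the first step of the pathway that yields ATP, had 155 and 135 CPM in aged-SP against 256, 149 and 147 CPM in young-SP. The groups overlapped, and aged-SP 1 lay above 2 of the young-SP libraries. The log2 fold change of -0.34 ± 0.28 (SE, edgeR adjusted p = 0.544) went to -0.04 without young-SP 1. Eno1 also overlapped between the groups, with 185 and 186.5 CPM against 299, 186 and 170.5 CPM. Its aged-SP 4 level lay just above young-SP 2, and both aged-SP libraries lay above young-SP 4. Eno1 had a log2 fold change of -0.23 ± 0.26 (SE, edgeR adjusted p = 0.662), which was 0.05 without young-SP 1. With the copies added to each gene before the fit, the log2 fold changes were -0.34 for Pgk1 and -0.24 for Eno1.

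Aldoa (chr7:126795234-126800751), which cleaves fructose 1,6-bisphosphate, had 345 and 347 CPM in aged-SP and 376, 289 and 335 CPM in young-SP. Both aged-SP libraries lay inside the young-SP range, and the log2 fold change was 0.05, with a 95% interval from -0.28 to 0.38. It was 0.13 without young-SP 1 and -0.04 without young-SP 2. Pfkl (chr10:77986947-78010083), the liver-type subunit of the enzyme that commits sugar to glycolysis, had 62.1 and 53.0 CPM against 78.6, 58.1 and 58.7 CPM, with overlapping groups and a log2 fold change of -0.18 (95% interval -0.60 to 0.25) that was -0.03 without young-SP 1.

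At the entry to the pathway stand the 2 hexokinase genes. Hk1 (chr10:62268855-62379908), the widespread form, had 95.3 and 103 CPM in aged-SP against 116, 116 and 119 CPM in young-SP. Its young-SP libraries lay close together, and the groups did not overlap. The difference was small, with a log2 fold change of -0.24 ± 0.085 (SE) and an edgeR adjusted p of 0.229, and it was -0.26 without young-SP 1. Hk2 (chr6:82725025-82774454), the form that is induced by insulin and hypoxia, had 61.4 and 29.4 CPM in aged-SP and 49.2, 34.5 and 36.2 CPM in young-SP. Its 2 aged-SP libraries were the highest and the lowest of all. The log2 fold change of 0.18 (95% interval -0.65 to 1.02) was 0.35 without young-SP 1 and turned to -0.44 without aged-SP 1.

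Slc2a1 (chr4:119108711-119137983), which encodes the transporter GLUT1, had 82.9 CPM in aged-SP 1 and 23.7 CPM in aged-SP 4. In young-SP 1, 2 and 4 it had 36.8, 22.8 and 25.2 CPM. Aged-SP 1 stood alone, and aged-SP 4 lay within the young-SP range. The log2 fold change of 0.92 (95% interval -0.39 to 2.22, edgeR adjusted p = 0.399) rested on that 1 library, and was -0.25 without it. It was 1.14 without young-SP 1.

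The paralogs of the enzymes were not called by edgeR or DESeq2 with all libraries. Of the hexokinases, Hk3 had 5.38 and 10.1 CPM against 16.0, 4.73 and 5.67 CPM, with overlapping groups and a log2 fold change of -0.19 that was 0.56 without young-SP 1. Among the phosphofructokinases Pfkm made up 50.7% and 63.0% of the summed FPKM in aged-SP and 48.9% to 58.4% in young-SP. These shares depend on the gene lengths used, 2957 bases for Pfkm, 6675 for Pfkl and 13401 for Pfkp. Their longest coding transcripts have 2879, 3730 and 4145 bases, and Pfkl had more reads than Pfkm in every library. The shares therefore do not show which form was the main one. The log2 fold change of Pfkm was -0.05, and that of Pfkp -0.10. Eno2 (log2 fold change 0.39) and Eno3 (-0.17) had edgeR adjusted p-values of 0.379 and 0.591. Pklr, the liver and red cell pyruvate kinase gene, had at most 10 reads, below the filter.

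Aldoc depended on 1 library. It had 5.56 and 7.48 CPM in aged-SP and 17.6 CPM in young-SP 1, against 1.005 in young-SP 2 and 1.40 in young-SP 4. The log2 fold change was -0.03 with all libraries and 2.42 without young-SP 1 (edgeR adjusted p = 0.0298). Gapdh, the reference of the study's qPCR, had 16.7 and 13.2 CPM against 18.1, 13.8 and 14.5 CPM and a log2 fold change of -0.05. Because 90.4% of the 50-base stretches in its coding transcript also lie in other genes, its count is uncertain in level.

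**Figure D3:**
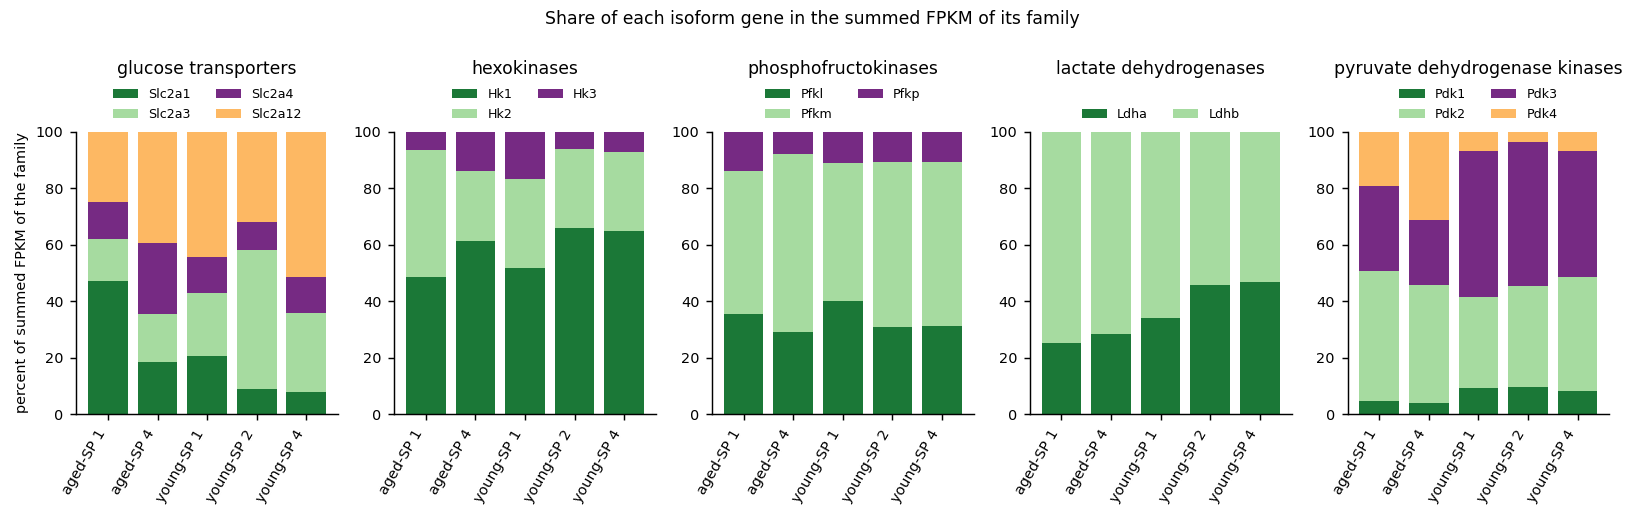
Share of each gene in the summed FPKM of its family (vertical axes, percent), with 1 stacked bar for each of the 5 libraries. The Ldha part is smaller and the Pdk4 part larger in the aged-SP bars than in any young-SP bar. The size of each part depends on the gene length behind the FPKM.

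A pair of other lists holds the transporters and the remaining enzymes. Of 14 other glucose transporter rows, 10 were tested, 1 higher and 2 lower in aged-SP at an unadjusted p under 0.05 (9.62% and 9.36% of all tested genes), with a median log2 fold change of -0.30. EdgeR called 0 of them, and DESeq2 called 2, both lower in aged-SP, by the rule under which it called 3.6% of all genes. Slc2a3, which encodes GLUT3, a transporter with high affinity for glucose, had 53.7 and 45.7 CPM in aged-SP and 84.0, 263 and 189 CPM in young-SP. Both aged-SP libraries lay below all young-SP libraries, of which young-SP 1 came nearest. On the log2 scale the difference was -1.85 ± 0.49 (SE), with an edgeR adjusted p of 0.147 and a DESeq2 adjusted p of 0.000678, and it was -2.20 without young-SP 1 (edgeR adjusted p = 0.0175). Slc2a12, which encodes GLUT12, had 53.1 and 61.7 CPM against 96.5, 99.0 and 203 CPM. This gave a log2 fold change of -1.21 ± 0.37 (SE), with adjusted p-values of 0.184 by edgeR and 0.0148 by DESeq2, and it was -1.41 without young-SP 1.

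The insulin-responsive transporter gene Slc2a4 had 22.6 and 32.1 CPM against 22.6, 25.4 and 42.4 CPM, a log2 fold change of -0.14. Slc2a8 had 15.1 and 17.2 CPM in aged-SP against 10.7 to 11.4 in young-SP, a log2 fold change of 0.53 with an edgeR adjusted p of 0.149. Slc2a1 made up 47.2% of the summed FPKM of Slc2a1, Slc2a3, Slc2a4 and Slc2a12 in aged-SP 1, 18.4% in aged-SP 4, 20.5% in young-SP 1 and 8.85% and 7.69% in young-SP 2 and 4. Slc2a3 held 14.8% and 17.1% in aged-SP and 22.6% to 49.5% in young-SP, which did not overlap.

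Of the 20 other glycolytic enzyme rows, 15 were tested, with a median log2 fold change of -0.03. Neither edgeR nor DESeq2 called any. Pgam2, a muscle phosphoglycerate mutase gene, stood at 2.72 and 2.30 CPM against 0.563 to 1.48 (log2 fold change 1.13, edgeR adjusted p = 0.264). The regulators of phosphofructokinase and hexokinase had 5 tested genes, 0 with an unadjusted p under 0.05 and a median of -0.34. Among them Pfkfb3, which makes the activator fructose 2,6-bisphosphate, had 78.7 and 120.2 CPM against 102, 198 and 213 CPM. That is a log2 fold change of -0.78 ± 0.37 (SE, edgeR adjusted p = 0.323), and without young-SP 1 it was -1.06 with an edgeR adjusted p of 0.0631 and a DESeq2 adjusted p of 0.000155. Pfkfb4 (log2 fold change -0.53) and Pfkfb2 (0.26) had edgeR adjusted p-values of 0.376 and 0.366.

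**Figure D4:**
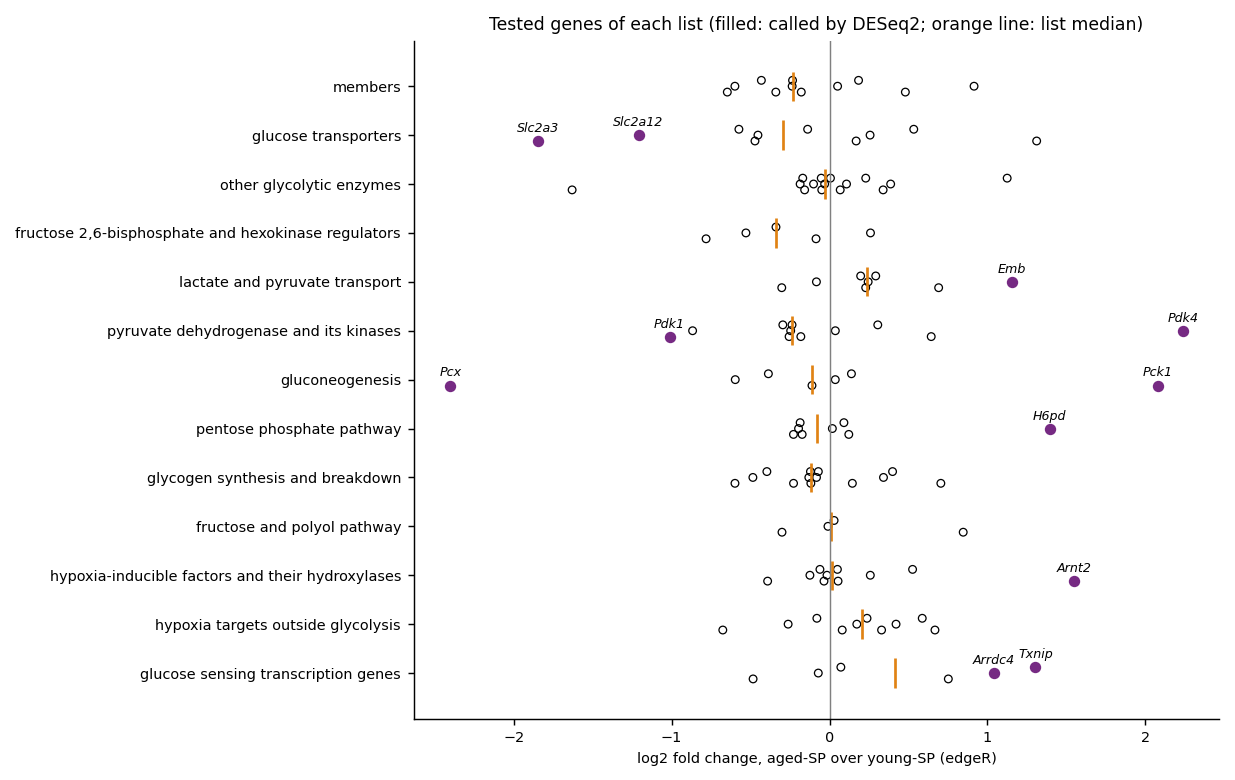
Log2 fold change, aged-SP over young-SP (horizontal axis, edgeR), of each tested gene in the members' list and 12 further lists of glucose metabolism (rows). Filled points are genes called by DESeq2, and the orange line is the median of the list. No member is filled, and the filled points with the largest distance from 0 are Pcx, Pdk4 and Pck1.

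Over the 12 further lists together, 107 of 119 rows were tested, of which 51 had a log2 fold change above 0 and 56 below. At an unadjusted p under 0.05, 15 were higher and 10 lower, beside the 9.62% and 9.36% of all tested genes, with which the counts of the lists that follow compare as well. EdgeR called 0 of them and DESeq2 called 11, of which 7 were higher in aged-SP and 4 lower, by the rule that called 3.6% of all genes. In a fit without young-SP 1, DESeq2 also called 11 genes, of which 9 were the same, while the share it called over all genes was 5.84%. EdgeR without young-SP 1 gave 11 of the 107 genes an adjusted p under 0.05, as it did 4.81% of all genes. It called 7 of the 107, and 578 of all 16745 tested genes. Emb and H6pd were called only with that library, and Aldoc and Pfkfb3 only without it. The median log2 fold change of the 107 genes was -0.03.

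**Figure D5:**
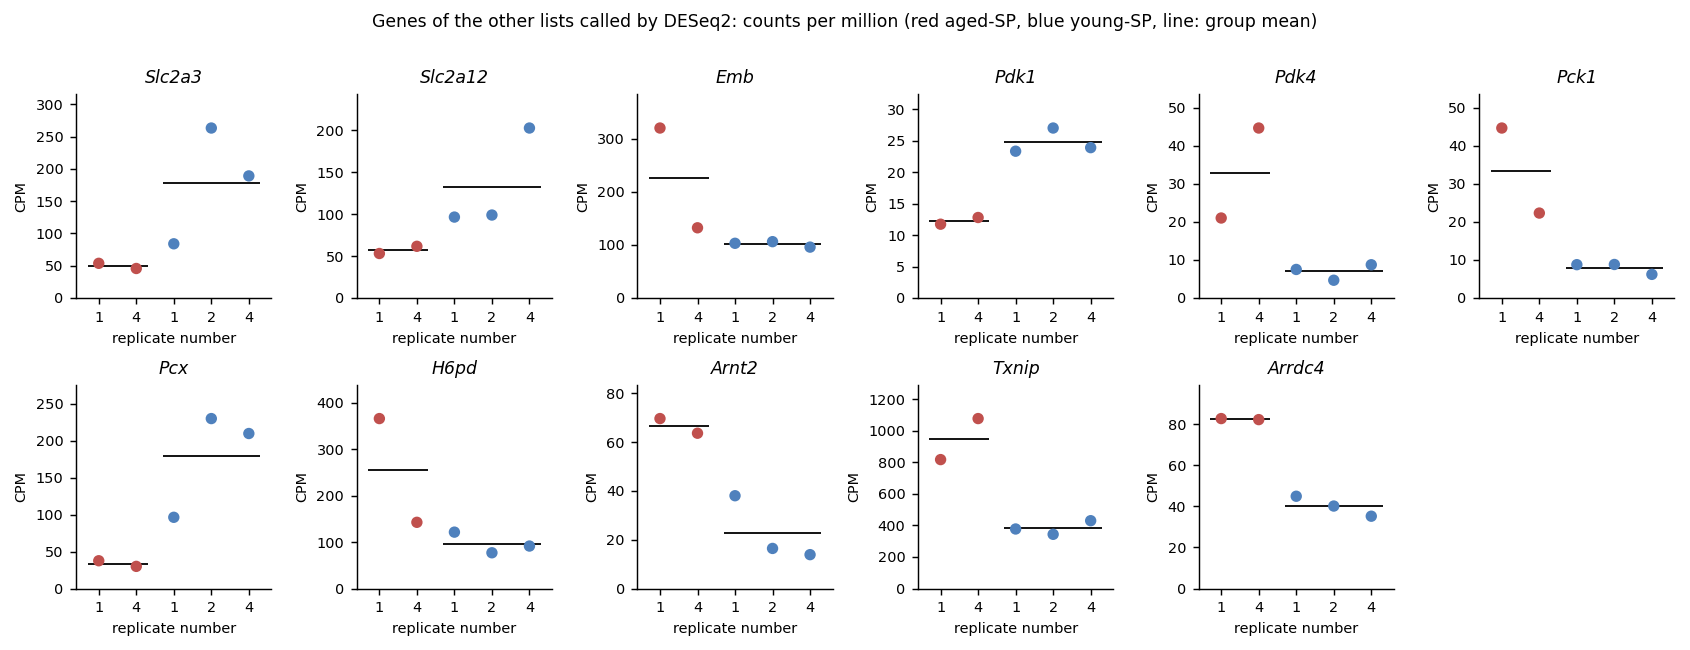
CPM (vertical axes from 0) of the 11 genes of the further lists that DESeq2 called, in each library, aged-SP in red, young-SP in blue, and black lines at group means. The groups do not overlap in any of the 11 panels, but these genes were chosen by their difference between the same libraries. Of all tested genes, 38.8% do not overlap in either direction. Aged-SP replicate 1 is far above replicate 4 for Emb and H6pd.

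At the branch after pyruvate, the kinases that switch off pyruvate dehydrogenase were unequal. Pdk1, whose kinase slows the oxidation of pyruvate in mitochondria, had 11.7 and 12.8 CPM in aged-SP and 23.3, 27.0 and 23.9 CPM in young-SP. The groups lay far apart next to their own spread, at a log2 fold change of -1.01 ± 0.14 (SE), an edgeR adjusted p of 0.0734 and a DESeq2 adjusted p of 3.93e-06. Pdk3 had 24.4 and 23.7 CPM against 42.8, 46.9 and 42.1 CPM (log2 fold change -0.87 ± 0.10 SE), with adjusted p-values of 0.065 by edgeR and 4.41e-07 by DESeq2. Pdk4, the kinase known to be induced by fasting, went the other way, with 21.04 and 44.7 CPM in aged-SP against 7.51, 4.67 and 8.74 CPM in young-SP. Pdk4 had a log2 fold change of 2.24 ± 0.40 (SE), or 4.72 times the young-SP level, with adjusted p-values of 0.0867 by edgeR and 1.16e-05 by DESeq2, and it was 1.59 without aged-SP 4.

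Without young-SP 1 the edgeR adjusted p was 0.0319 for Pdk1, 0.0285 for Pdk3 and 0.0677 for Pdk4. Of the FPKM of the 4 kinase genes, Pdk4 made up 19.1% and 31.4% in aged-SP and 3.70% to 6.77% in young-SP, and Pdk3 30.4% and 22.8% against 44.7% to 51.8%. Pdk2 held 45.8% and 41.8% against 32.3% to 40.2%. Of the 11 tested genes of this list, 2 were higher and 2 lower at an unadjusted p under 0.05, with a median of -0.24. Pdha1, a subunit gene of the dehydrogenase itself, had 144 and 170.1 CPM against 180.1 to 193 (log2 fold change -0.26, edgeR adjusted p = 0.278).

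Export and import of lactate run through monocarboxylate transporters and their chaperones. Their list had 8 tested genes, 3 of them higher and 0 lower at an unadjusted p under 0.05, with a median of 0.24. Slc16a1, which encodes MCT1, had 88.0 and 58.1 CPM against 42.2, 39.96 and 53.7 CPM (log2 fold change 0.69 ± 0.22 SE, edgeR adjusted p = 0.191). Its chaperone gene Bsg had 513 and 444 CPM against 365 to 412 (log2 fold change 0.29, edgeR adjusted p = 0.241). Emb, a second chaperone gene, had 321 and 132 CPM against 103, 106 and 96.0 CPM. The log2 fold change of Emb was 1.15 ± 0.35 (SE), with adjusted p-values of 0.180 by edgeR and 0.0208 by DESeq2, and it was 0.38 without aged-SP 1.

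Txnip and Arrdc4 are arrestin genes whose transcription follows glucose 6-phosphate and whose proteins restrain glucose uptake. Txnip had 816 and 1076 CPM in aged-SP and 377, 343 and 430 CPM in young-SP. Txnip thus had a log2 fold change of 1.30 ± 0.16 (SE), or 2.47 times the young-SP level, with adjusted p-values of 0.0674 by edgeR and 2.16e-09 by DESeq2. Arrdc4 had 82.8 and 82.3 CPM against 45.0, 40.2 and 35.2 CPM. Its log2 fold change was 1.04 ± 0.12 (SE), with adjusted p-values of 0.0647 by edgeR and 3.69e-08 by DESeq2. In both genes every aged-SP library lay above every young-SP library. Without young-SP 1 the edgeR adjusted p was 0.0351 for Txnip and 0.0183 for Arrdc4. Of the 6 tested genes of the list, which also holds the MONDO factors that drive both genes, 2 were higher and 0 lower at an unadjusted p under 0.05, with a median of 0.41. Myc had 77.6 and 48.2 CPM against 83.9 to 94.99 (log2 fold change -0.48, edgeR adjusted p = 0.298).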

How the data were processed

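Uterine RNA of 2 aged-SP and 3 young-SP libraries was analysed, with groups taken from the sample labels. Libraries were made with the NEBNext Ultra RNA kit. The submitters' processing notes name Bowtie2 2.2.3, HISAT2 2.1.0 and HTSeq 0.6.0. The authors deposited unnormalized counts of reads per gene, with totals of 15071914 to 16728601 per library, and no genome build is named in the sources used here; positions match GRCm38. The FPKM values deposited beside them equal the count over gene length and total count, which held for 117552 of 117552 nonzero values within a relative tolerance of 0.0001. FPKM served for levels and shares, and only counts were tested. For many genes the length behind the FPKM exceeded the longest coding transcript, as for Eno1 (5379 against 2027 bases). Levels and shares compared between genes depend on that length. The deposited comparison columns (fold changes and p-values) were not used, and 0 columns of per-sample values were left unused.

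Counts were filtered with filterByExpr, scaled by TMM and fitted with edgeR 4.0.16 (glmQLFit and glmQLFTest) in R 4.3.3, with Benjamini-Hochberg adjustment over all 17013 tested genes. A gene was called at adjusted p under 0.05 if its log2 fold change also exceeded 1 in size. CPM are counts over the TMM-scaled library size. The TMM factors lay between 0.990 and 1.02, and the biological coefficient of variation was 25.1%. Alternatives were DESeq2 1.42.0 (its Wald test, or its size factors in edgeR), limma 3.58.1 with voom, library size alone, other filters, a replicate block, each library left out, and members summed with rows that share at least 50% of their 50-base stretches. EdgeR, DESeq2 and limma-voom were run on simulated data with 200 changed genes. In those runs a larger share of the calls was false with DESeq2 than with edgeR. The simulated counts were drawn with the spread that edgeR had estimated for each gene, so the runs cannot rank the tools on these data. Shared sequence came from GENCODE M21 transcripts, promoters from RefSeq on GRCm38.p6, in which all 10 members matched.

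Members and lists were chosen with earlier results of these data known. Besides the members, the text names from each list every gene that edgeR or DESeq2 called, up to 3 genes with the smallest edgeR p, the gene with the highest mean FPKM, paralogs of the members and Gapdh. Slc2a7 and Pgk2 were not analysed here, nor were the marker genes Lep, Myh4 and Hba-a2. A result that falls under this rule is not reported here.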

Additional observations from a re-analysis of the deposited data

How the results depend on the processing

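The members' count of calls was 0 under all alternatives run. Without young-SP 1, 2 and 4 in turn, 4, 3 and 3 members had an unadjusted edgeR p under 0.05 and were lower. Beside these, 11.1%, 6.18% and 7.75% of all tested genes passed that rule and were lower. With any 1 library left out, the members' median log2 fold change lay between -0.30 and -0.03, nearest 0 without young-SP 1. Groups share the numbers 1 and 4, but 2 shared numbers do not show that samples were paired. The deviations from the group means correlated at 0.169 for number 1 and 0.168 for number 4, and between -0.169 and 0.0785 for unlike numbers. Deviations of the 2 aged-SP libraries mirror each other, so these values are not separate. A replicate block gave 0 calls among members, 3 with an unadjusted edgeR p under 0.05 and a median of -0.245. The share of all genes with such a p under the block is not given here. Aldoa was -0.039 and Aldoc 0.21 under the block, the latter 1.13 under limma-voom. When single libraries were left out, the direction turned for 14 of the genes named in the text, whose log2 fold changes ranged for Aldoa from -0.044 to 0.13, Aldoc from -0.55 to 2.42, Eno1 from -0.39 to 0.048, Gapdh from -0.23 to 0.11, Hif1a from -0.44 to 0.28, Hk2 from -0.44 to 0.62, Hk3 from -0.71 to 0.56, Ldhb from -0.022 to 0.83, Pfkm from -0.25 to 0.12, Pfkp from -0.54 to 0.24, Pygb from -0.27 to 0.0041, Slc2a1 from -0.25 to 1.55, Slc2a4 from -0.41 to 0.18 and Tkfc from -0.17 to 0.20. In all, 669 of the single-gene values kept direction and side of the threshold, 24 passed it where they had not before, and 23 turned, and the cause was not tested. Without a filter on low counts, edgeR called Txnip, Arrdc4, Pdk1, Pdk4, Pck1 and Pcx. The share of all genes called in that fit is not given here, so whether these calls exceed it cannot be told. The DESeq2 fit without young-SP 1 was chosen after seeing the data, and it called 11 genes of the further lists, as with all libraries. Intervals rest on 5 libraries, no molecular identifiers are named for the reads, and where 1 aged-SP library was left it was assumed to vary like the others.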

Other observations

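The genes Pcx and Pck1, which act on pyruvate and oxaloacetate, differed in opposite directions. Pcx, the pyruvate carboxylase gene, had 37.6 and 30.0 CPM in aged-SP against 96.4, 230.0 and 209.8 CPM in young-SP, a log2 fold change of -2.40 ± 0.42 (SE). Its adjusted p was 0.0831 by edgeR and 2.96e-08 by DESeq2, and 0.00784 by edgeR without young-SP 1. Pck1, the gene of the enzyme that makes phosphoenolpyruvate, had 44.7 and 22.3 CPM against 8.76, 8.81 and 6.21 CPM. It was 2.08 ± 0.33 (SE) higher on the log2 scale, with adjusted p-values of 0.076 by edgeR and 2.04e-06 by DESeq2. Without aged-SP 1 the log2 fold change of Pck1 was 1.49. Slc37a4, the glucose 6-phosphate transporter gene, had a log2 fold change of -0.60 (edgeR adjusted p = 0.236). The list of gluconeogenesis had 7 tested genes, 1 higher and 2 lower at an unadjusted p under 0.05, and a median of -0.11. Among the side branches, 9.62% of all tested genes being higher and 9.36% lower at an unadjusted p under 0.05, the lists gave the following. Of 8 tested genes of the pentose phosphate pathway, 1 was higher and 0 lower at an unadjusted p under 0.05, with a median of -0.08. That gene was H6pd, whose enzyme works inside the endoplasmic reticulum, at 366 and 143 CPM against 121, 77.0 and 91.5 CPM (log2 fold change 1.40 ± 0.41 SE, adjusted p 0.174 by edgeR and 0.0109 by DESeq2). Without aged-SP 1 the log2 fold change of H6pd was 0.56 (edgeR adjusted p = 0.489). Pgls and Taldo1 had log2 fold changes of -0.20 and -0.19. Glycogen genes had 13 tested members, 0 higher and 1 lower, with a median of -0.12. The lower one was Ugp2, which makes UDP-glucose, with 94.6 and 99.97 CPM against 128, 159 and 155 CPM (log2 fold change -0.60 ± 0.12 SE, adjusted p 0.106 by edgeR and 0.00357 by DESeq2). Gyg (0.40), Phka2 (0.34) and Pygb (-0.13) had edgeR adjusted p-values of 0.303, 0.273 and 0.719. In the fructose and polyol list, with 4 tested genes and a median of 0.0094, the sorbitol dehydrogenase gene Sord had 63.6 and 104 CPM against 37.0, 50.2 and 52.9 CPM. Sord had a log2 fold change of 0.85 ± 0.25 (SE), with adjusted p-values of 0.177 by edgeR and 0.0424 by DESeq2. Akr1b3 (-0.30) and Tkfc (0.03) had unadjusted p-values above 0.05.

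In the hypoxia response, Hif1a, the oxygen-regulated subunit gene, had 269 and 163 CPM in aged-SP and 181, 222 and 261 CPM in young-SP, a log2 fold change of -0.04 (95% interval -0.67 to 0.60). Epas1 stood at 201 and 195 CPM against 141 to 195 CPM (log2 fold change 0.26, edgeR adjusted p = 0.410). Egln1, an oxygen-sensing hydroxylase gene, had a log2 fold change of -0.39 (edgeR adjusted p = 0.153). Arnt2, a partner subunit gene, was higher, at 69.6 and 63.6 CPM against 38.0, 16.4 and 13.9 CPM, with a log2 fold change of 1.55 ± 0.44 (SE) and adjusted p-values of 0.163 by edgeR and 0.00837 by DESeq2. Without young-SP 1 it was 2.12 (edgeR adjusted p = 0.00845). Of the 10 tested genes of this list 1 was higher and 1 lower at an unadjusted p under 0.05, with a median of 0.017. Of the 10 hypoxia targets outside glycolysis, 3 were higher and 1 lower at an unadjusted p under 0.05, with a median log2 fold change of 0.20, against -0.23 for the members. Without young-SP 1 these medians were 0.22 and -0.03. Kdm3a, a histone demethylase gene, had 95.9 and 84.7 CPM against 66.8, 57.9 and 55.6 CPM (log2 fold change 0.59 ± 0.12 SE, edgeR adjusted p = 0.103). Bnip3, a gene of mitochondrial clearance, had 32.3 and 37.2 CPM against 24.2, 19.4 and 22.0 CPM (log2 fold change 0.67 ± 0.14 SE, edgeR adjusted p = 0.108). P4ha2, a collagen hydroxylase gene, was lower, at 39.8 and 37.3 CPM against 63.7, 56.5 and 64.6 CPM (log2 fold change -0.68 ± 0.10 SE, edgeR adjusted p = 0.0754). DESeq2 gave adjusted p-values of 0.00612, 0.0092 and 0.000247 for these 3. Vegfa had a log2 fold change of 0.17 (edgeR adjusted p = 0.363).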
